A study of Saccharomyces cerevisiae with 328 samples.

Results

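The strains described here each lack 1 gene of sterol synthesis, of sphingolipid metabolism or of lipid handling at the endoplasmic reticulum (ER): YMR202W (ERG2), YLR372W (SUR4, also called ELO3), YER019W (ISC1), YLR242C (ARV1) and YLR087C (CSF1). They were chosen by the function of the deleted gene, not by a measured value, and are 5 of the 328 strains of the series. The other 323 strains of Saccharomyces cerevisiae each lack 1 other gene, and all values are log ratios to the wild type strain, with the base taken as 2 because the files do not write it. PolyA RNA was sequenced from cultures in exponential growth, 1 library per strain, after overnight growth in liquid medium, dilution and 2 to 3 divisions. The growth rates to which the series relates its expression data were not analysed here. Per the labels a strain is defined by its deleted open reading frame alone, and its background, mating type, medium and deletion marker are not stated there. The 5 strains were used as the replicates of a class, so its spread includes real differences between 5 genotypes, and a value in 1 strain has no replicate check. A value averages over all cells of a culture, so a change in every cell and a change in the share of cells of 1 kind cannot be told apart.

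Ergosterol is the main sterol of yeast membranes and is made in the ER from acetyl-CoA through mevalonate and squalene. ERG2 encodes the sterol isomerase that acts late in this route, SUR4 encodes an elongase that makes the very long chain fatty acids of ceramide, and ISC1 encodes the phospholipase that releases ceramide from inositol phosphosphingolipids. ARV1 encodes an ER membrane protein needed for normal sterol distribution and for the synthesis of the GPI anchors that hold proteins at the cell surface, and CSF1 encodes a very large protein of the bridge-like lipid transfer family. When sterols run low the transcription factors Upc2 and Ecm22 act on ergosterol genes, when unfolded proteins build up in the ER Hac1 acts on chaperone genes, and when the wall is damaged the kinase Slt2 acts on wall genes.

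The deleted gene was looked at first in each strain. ERG2 had a log2 ratio of -3.70 in the strain lacking it, against -2.33, -0.89 and -0.07 (lowest, median and highest) in the other deletions, and SUR4 had -1.53, against -1.03, -0.31 and 0.40. Both were the lowest of the 328 strains. ISC1 had -1.62 in its own strain, against -1.79, -0.35 and 1.58, which was the 4th lowest of the 327 values. Some strains that carry ISC1 were lower, so this value checks the label less firmly than those of ERG2 and SUR4. ARV1 and CSF1 had no value in their own strains and were also empty in 11.8% and 17.6% of the other deletions, so an empty cell checks these labels less firmly than a low value would. Among the genes next to the deleted ones, YLR243W beside ARV1 had -1.08 in the ARV1 strain, the 13th lowest of 328, against a median of -0.05 in the other deletions. Its difference was -0.94 from the mean of the other deletions but -0.50 against the library batch described below. RAD14 beside ERG2 had differences of -0.64 and -0.59 in the ERG2 strain.

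The libraries were not equally complete or equally scattered. Over the genes measured in 80% or more of the libraries, the CSF1 strain had 4.76% and the ISC1 strain 4.07% empty cells, ranking 15th and 23rd from the top of the series, and the other 3 had 0.378% to 1.58%. The strains were divided by their values into 4 groups, a number that was set and not estimated. The groups are called library batches here, though the labels do not name them. They held 38.99% of the variance over 2142 complete genes. They were cut from these same values, so this share does not show what sets them apart, which was not tested. ARV1 was in the first, ERG2 in the second, SUR4 and ISC1 in the third and CSF1 in the fourth. The SD around the batch mean was 0.695 in the CSF1 strain, the 8th highest of the series, against a median of 0.371 in the other deletions. No whole chromosome was shifted by more than 0.140 in the 5 strains. The median difference from the other deletions over all genes was -0.16 in the ISC1 strain and between -0.04 and 0.04 in the other 4.

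Set against all other deletions, few genes were called in the 5 strains as a class. KAR2 and YJL171C were called higher, with the ARV1 and CSF1 strains far above the other 3, and no gene was called lower. In limma, over 4491 genes and at a Benjamini-Hochberg adjusted p under 0.05, 0.0445% of genes were called higher and 0% lower, while 6.41% had an unadjusted p under 0.05. KAR2 encodes the Hsp70 chaperone of the ER lumen, known as BiP. Its log2 ratios were 0.32 in the ERG2, -0.05 in the SUR4, -0.17 in the ISC1, 2.54 in the ARV1 and 1.46 in the CSF1 strain, against -0.82, 0.05 and 1.86 (lowest, median and highest) in the other deletions. The ARV1 strain was the highest of the series and the CSF1 strain the 3rd highest, while the ERG2, SUR4 and ISC1 strains lay within the bulk of the others. KAR2 averaged 0.82 ± 1.16 in the class (SD, n = 5) and 0.05 ± 0.34 in the other deletions (SD, n = 323). The difference was 0.78 ± 0.16 (SE, limma, adjusted p = 0.0137). That SE and p rest mostly on the spread of the other deletions, not on the wider spread of the class.

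YJL171C encodes a GPI-anchored cell wall protein. It had log2 ratios of 0.20, 0.49, 0.60, 1.56 and 1.98 in the ERG2, SUR4, ISC1, ARV1 and CSF1 strains, against -1.29, 0.11 and 1.62 in the other deletions. All 5 lay above the median of the others, the CSF1 strain was the highest of the series and the ARV1 strain the 3rd, and the groups overlapped. The difference was 0.87 ± 0.19 (SE, limma, adjusted p = 0.021), from 0.97 ± 0.76 in the class (SD, n = 5) and 0.10 ± 0.42 in the other deletions (SD, n = 323). Both calls rested on the ARV1 and CSF1 strains. Without the CSF1 strain the adjusted p (limma) was 0.444 for KAR2 and 0.510 for YJL171C, and without the ARV1 strain it was 0.716 and 0.274, with the KAR2 difference then at 0.35.

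With the library batch as a term, limma called 24 genes higher (0.534% of those tested) and 8 lower (0.178%), among them KAR2, YJL171C and, lower, the deleted ERG2 and SUR4 themselves. GSC2, the stress-induced catalytic subunit of glucan synthase, had log2 ratios of 2.07, 0.99, 0.57, 3.09 and 1.23 in the ERG2, SUR4, ISC1, ARV1 and CSF1 strains, against -1.18, -0.09 and 3.26 in the other deletions. Every strain of the class lay above the median of the others, though none above their highest. Its difference was 1.52 ± 0.39 with the batch (SE, limma, adjusted p = 0.0238) and 1.5 ± 0.39 without (adjusted p = 0.0805). Reads shared with its near copy FKS1 cannot be traced here, since the counting is not given.

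DIA1 and YET2 were called with the batch as well, and in both the ARV1 and CSF1 strains stood well above the other 3. DIA1, involved in invasive growth, had 1.31, 0.86, 0.96, 2.58 and 2.36, against -0.66, 0.43 and 2.89, with a difference of 1.16 ± 0.27 (SE, limma with batch, adjusted p = 0.011). YET2, an ER membrane protein of the BAP31 family, had 0.70, 1.17, 0.66, 3.10 and 3.05, against -0.43, 0.66 and 3.37, with a difference of 1.06 ± 0.26 (SE, limma with batch, adjusted p = 0.0168). The pattern of a high ARV1 and CSF1 strain and 3 strains near the others recurred in SLT2, the wall integrity kinase itself. SLT2 had 0.06, -0.39, -1.01, 1.80 and 1.49, against -2.43, -0.49 and 2.04, with a difference of 0.90 ± 0.22 (SE, limma with batch, adjusted p = 0.0168; without batch 0.194). Further named calls in that fit were YCL049C, SCM4, SEC59 (dolichol kinase), ERO1 (ER thiol oxidase), PBI2, FKH1 and YCL047C, higher. UTP25 and UTP21 (small subunit processome), RPC31 and RPA49 (subunits of RNA polymerases III and I), PAM18 (mitochondrial import) and RPS6B were lower.

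Of the 20 gene lists, the ER folding list alone held a gene called in the class without the batch, KAR2. Medians of the class difference are given against -0.02 over all genes tested. They were highest for cell wall integrity (13 genes tested, median 0.43), anaerobic and hypoxic genes (5, 0.42) and unfolded protein response and ER folding (14, 0.37). With the batch, GSC2, CRH1, SLT2 and CIS3 of the wall list and PDI1, KAR2 and ERO1 of the folding list were called higher. These medians were lower when 1 strain was left out: the wall list was at 0.20 and the folding list at 0.05 without the ARV1 strain, and the anaerobic list at -0.0096 without the ERG2 strain.

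Among the lipid lists, ergosterol synthesis had a median of 0.22 over 24 genes and -0.0015 without the ERG2 strain. With the batch as a term it held ERG27, called higher, and the deleted ERG2 itself, called lower. Sterol regulation, transport and storage stood at 0.18 over 18 genes and inositol and phospholipid synthesis at 0.07 over 21. Sphingolipid metabolism stood at 0.02 over 31, where only the deleted SUR4 itself was called, lower with the batch. Fatty acid synthesis and desaturation (13 genes) and pleiotropic drug resistance (10 genes) both stood at -0.01, and GPI anchor synthesis at -0.03 over 21, where MCD4 was called higher with the batch. None of the eisosome genes was called in either fit (13 genes, median -0.09).

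The remaining lists concern growth and metabolism. Stress-induced genes stood at 0.27 over 34 genes, glycolysis at 0.25 over 16, sulfur and methionine at 0.20 over 17, phosphate at 0.09 over 7 and respiration and TCA cycle at 0.03 over 40. Amino acid biosynthesis stood at -0.02 over 60 genes and the iron regulon at -0.11 over 11, and none of these 7 lists had a member called in either fit. Ribosome biogenesis had a median of -0.22 over 59 genes and cytosolic ribosomal proteins of -0.11, with UTP21 and RPS6B called lower with the batch. The class medians hide strains that stood far apart, as the plot of the 20 lists by strain shows, and each strain is therefore described in turn.

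**Figure D1:**
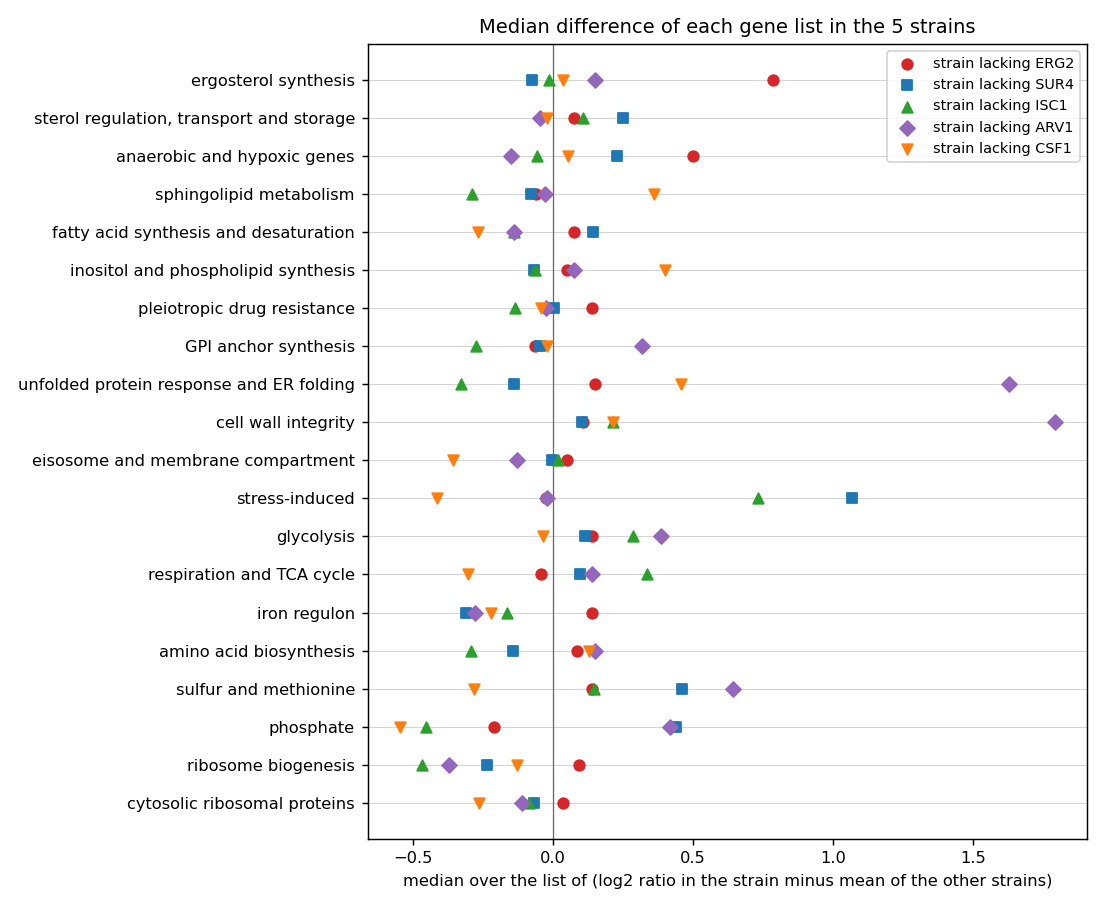
Median difference of each of 20 gene lists (rows) in each of the 5 strains, as the log2 ratio in the strain minus the mean of the other deletions (horizontal axis, log2 units). Each symbol is 1 strain; the ERG2 strain stands apart in ergosterol synthesis (0.79), the ARV1 strain in ER folding (1.63) and cell wall integrity (1.79), and the SUR4 and ISC1 strains in stress-induced genes (1.07 and 0.73).

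The strain lacking ERG2 had high transcripts of its own pathway and few other large differences. Its median over the 24 ergosterol genes was 0.79 above the mean of the other deletions, the highest of the 328 strains, with the MEH1 strain next at 0.60 and the other deletions between -0.43 and 0.60 (median -0.01). Of the 24 genes, 22 were above the mean of the others, against 51.3% of all genes, 6 were at least 2-fold higher and 1, the deleted ERG2, was at least 2-fold lower. Over all 4428 genes with a value, 0.768% were at least 2-fold higher (34 genes) and 1.13% at least 2-fold lower (50), against medians of 47 and 80 genes in the other deletions. Taken against the mean of its own library batch the ergosterol median was 0.70 and again the highest of all strains.

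Sterol response elements, the sites known to be bound by Upc2 and Ecm22, were looked for because the ergosterol genes stood high together in the ERG2 strain. The letters TCGTATA were searched on both strands of the 500 bases before the start codon in the R64 genome, and 8 of the 24 ergosterol genes (33.3%) held at least 1 match, against 420 of 6000 genes (7%). At least 2 matches were held by 3 of the 24 (12.5%), against 22 of the 6000 (0.367%). Ergosterol genes are known targets of these factors, so the shares describe the list and not the ERG2 strain. Whether the sites have a part in the high values there was not tested. ERG13, ERG8, ERG1 and the deleted ERG2 also held a match, and their windows are not shown. The windows of 4 genes with a match that were among the highest in the ERG2 strain follow. Each is on the strand of its gene, with the match in capitals.
ERG3: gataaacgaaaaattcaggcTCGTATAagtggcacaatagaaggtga
ERG25: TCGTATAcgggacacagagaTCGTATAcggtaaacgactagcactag
ERG28: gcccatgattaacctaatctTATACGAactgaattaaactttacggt
ERG6: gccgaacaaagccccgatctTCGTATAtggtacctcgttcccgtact
These lie at chrXII:253555-253601 (plus strand), chrVII:610081-610127 (plus), chrV:238268-238314 (minus) and chrXIII:253396-253442 (minus). The ERG28 match is the reverse complement of the letters searched. ERG11, HMG1 and TIR1, also high in the ERG2 strain, had no match in this window.

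ERG3 encodes the desaturase that acts directly after the Erg2 step. Its log2 ratios were 1.5 in the ERG2, -1.0 in the SUR4, -0.61 in the ISC1, -0.52 in the ARV1 and -0.75 in the CSF1 strain, against -1.57, -0.68 and 0.82 in the other deletions. The ERG2 strain alone lay above all others, at 2.19 over their mean, and the other 4 strains of the class lay near the median. ERG25, the methyl oxidase that acts earlier on the sterol rings, had 1.86, 0.48, -0.04, -0.24 and 0.14, against -1.77, 0.15 and 1.79, so that the ERG2 strain was again the highest but by a narrow margin over the MEH1 strain.

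Steps on both sides of the missing isomerase were high. ERG11, the lanosterol demethylase, had 0.56, -0.49, -1.04, -0.36 and -1.45 in the ERG2, SUR4, ISC1, ARV1 and CSF1 strains, against -2.16, -0.64 and 0.54, and ERG4, the last enzyme of the route, had 0.55, -0.60, -0.04, -0.31 and -0.20, against -1.36, -0.47 and 0.23. In both the ERG2 strain was the highest of the series. ERG28, the scaffold of the demethylation complex, had 1.53 in the ERG2 strain and ERG6, the sterol methyltransferase, had 0.71, each the second highest of the series, against medians of 0.09 and -0.50 in the other deletions. HMG1, the HMG-CoA reductase that sets the rate of the mevalonate route, had 0.81 and ERG5, the desaturase that follows Erg3, had 1.00, again second, against medians of -0.23 and 0.07. The paralog HMG2, at -0.70 against a median of -0.26, and the deleted gene were the only 2 of the 24 below the mean of the others.

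**Figure D2:**
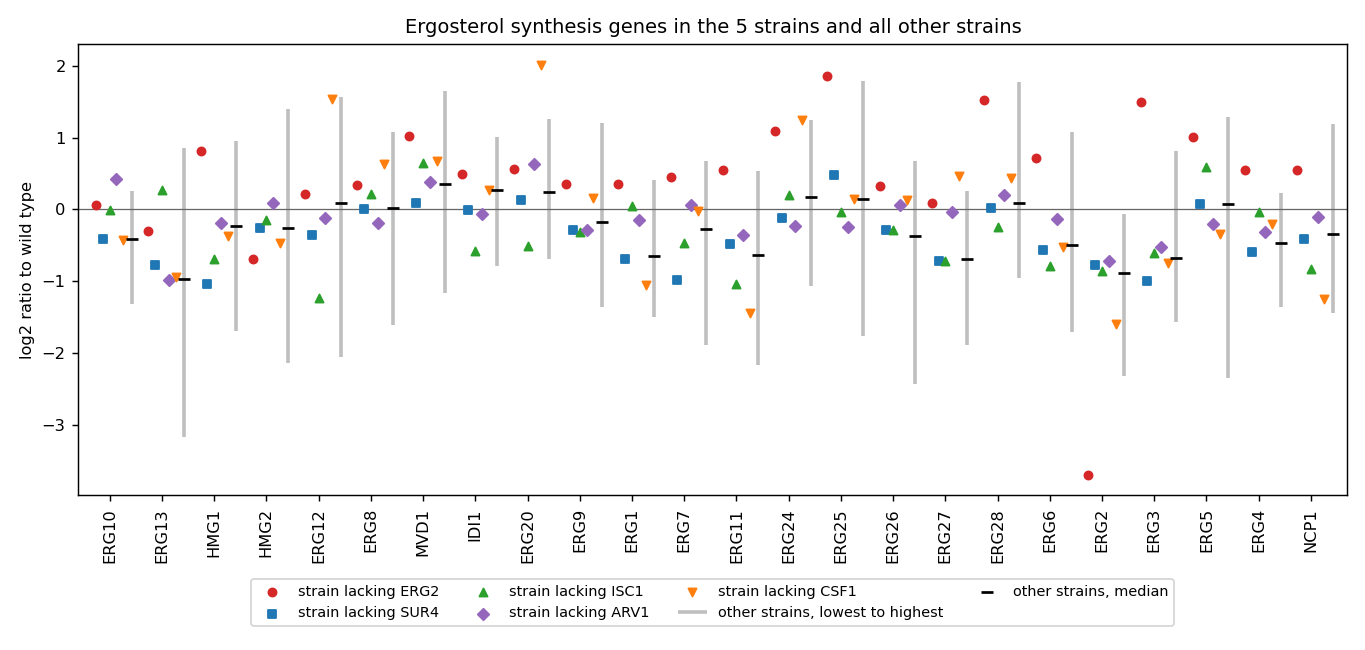
Log2 ratio to wild type (vertical axis) of the 24 ergosterol synthesis genes in the order of the pathway, with 1 symbol per strain and, beside them, the range (grey line) and median (black dash) of the other deletions. The ERG2 strain lies above the range of the other deletions in ERG11, ERG25, ERG3 and ERG4, and the CSF1 strain lies above it in ERG20 and ERG27.

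Outside the synthesis genes, TIR1 stood furthest from the other deletions in the ERG2 strain. TIR1 encodes a cell wall mannoprotein induced under low oxygen and in the cold. It had a log2 ratio of 3.68 in the ERG2, -0.55 in the SUR4, -0.97 in the ISC1 and -1.36 in the ARV1 strain, with no value in the CSF1 strain, against -2.05, -0.97 and 1.76 in the other deletions. The ERG2 strain lay 4.60 above their mean, and the next strain of the series lacked PHO86. TIR3, a member of the same family chosen after its values were seen, had 1.07 in the ERG2 strain, the 3rd highest of the strains with a value, and reads shared between family members cannot be traced here. ATF2, whose enzyme acetylates sterols before export, was the highest of the series at 1.07 in the ERG2 strain, against -0.35, -0.82 and -1.37 in the SUR4, ISC1 and ARV1 strains and -2.46, -1.12 and 0.63 in the other deletions.

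Of the regulators, UPC2 was above and ECM22 below the median of the other deletions in the ERG2 strain. UPC2 had 0.20 in the ERG2, -0.70 in the SUR4 and -1.19 in the ARV1 strain, with no value in the ISC1 and CSF1 strains, against -1.21, -0.61 and 0.50 in the other deletions, and the ERG2 strain ranked 6th of the strains with a value. ECM22 had 0.11, -0.45, 0.32, 0.61 and 1.35, against -1.28, 0.67 and 2.34. ARE1, the acyltransferase that stores sterols as esters, had 0.03 in the ERG2 strain, the 9th highest, against a median of -0.88 in the other deletions, while ARE2 had -1.86 against -2.19. The anaerobic and hypoxic list was mixed in this strain: its median was 0.50, yet CYC7 stood at -0.44 against a median of 1.01, and with the batch mean as reference the list median was 0.04.

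Single ergosterol genes stood high in the CSF1 and ARV1 strains. The CSF1 strain had a median of 0.03 with 4 of 24 genes at least 2-fold higher, against 9.4% of all its genes. Against its batch it had -0.04 with 3 higher and 2 lower, where 665 of its 4285 genes were at least 2-fold from the batch mean. The ARV1 strain had 0.15, the 64th highest, with 0 of 24 at least 2-fold higher, against 3.39% of all its genes, and 0.19, the 13th highest, against its batch. ERG20, the farnesyl pyrophosphate synthase, had 0.56, 0.13, -0.51, 0.64 and 2.02 in the ERG2, SUR4, ISC1, ARV1 and CSF1 strains, against -0.69, 0.24 and 1.25, so that the CSF1 strain lay above all others. ERG12, the mevalonate kinase, had 1.54 and ERG24, the sterol reductase after the Erg11 step, 1.24 in the CSF1 strain, each the second highest, while ERG11 there was among the lowest at -1.45. ERG27, the 3-keto sterol reductase, had 0.09, -0.72, -0.71, -0.04 and 0.47, against -1.89, -0.70 and 0.25, with the CSF1 strain the highest, the ERG2 strain 4th and the ARV1 strain 11th of the series. It was the only ergosterol gene other than ERG2 called with the batch as a term (0.51 ± 0.12, SE, limma, adjusted p = 0.011; without batch 0.50 ± 0.13 and 0.0797). ERG10, the acetoacetyl-CoA thiolase, was the highest of the series in the ARV1 strain at 0.43, against a median of -0.41. ERG13, the HMG-CoA synthase, stood at 0.27 in the ISC1 strain, against a median of -0.97 in the other deletions.

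The strains lacking SUR4 and ISC1, one an elongase that feeds ceramide synthesis and the other the enzyme that returns ceramide from complex sphingolipids, had high stress-induced transcripts, and both were in the same library batch. The SUR4 strain had a list median of 1.07 over 34 stress genes, the 4th highest of the series, with 18 at least 2-fold higher and all 34 above the mean of the other deletions, against 1.53% and 45.1% of all its genes. The ISC1 strain had 0.73, the 22nd highest, with 11 of 34 at least 2-fold higher, against 3.68% of all its genes. The ERG2, ARV1 and CSF1 strains had -0.03, -0.02 and -0.41, and the other deletions ran between -1.72 and 1.48 with a median of -0.03. Against the mean of their batch the SUR4 strain had 0.78 and the ISC1 strain 0.72, ranking 19th and 20th. Centred on its own median, the ISC1 strain had 0.89.

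The stress response element, the letters CCCCT bound by Msn2 and Msn4, was counted in the same windows. Of 40 stress genes with a window 39 held it (97.5%) and 30 held at least 2 matches (75%), against 34.1% and 8.13% of 6000 genes. The list was drawn up from known targets of these factors, so the share describes the list and not the strains. The 2 windows shown belong to genes that stood high in the SUR4 strain, with the letters in capitals.
HSP12: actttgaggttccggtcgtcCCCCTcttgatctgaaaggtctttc
CTT1: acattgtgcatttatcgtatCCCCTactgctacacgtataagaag
They lie on the plus strand at chrVI:107046-107090 and chrVII:654481-654525, and the full windows hold 5 and 3 matches.

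The stress genes given here, other than those at the top of the series, were chosen after their values were seen. HSP12, a small membrane-protecting heat shock protein, had log2 ratios of 0.46 in the ERG2, 2.91 in the SUR4, 1.63 in the ISC1, 0.13 in the ARV1 and 0.81 in the CSF1 strain, against -3.15, 0.73 and 3.83 in the other deletions. CTT1, the cytosolic catalase, had 0.28, 2.90, 1.48 and 0.91 in the ERG2, SUR4, ISC1 and ARV1 strains, with no value in the CSF1 strain, against -0.25, 0.88 and 3.79. In both genes the SUR4 strain ranked 6th of the series, the ISC1 strain lay above the median and the ranges overlapped. ALD3, a stress-induced aldehyde dehydrogenase, had 0.69, 3.45, 1.05, -0.23 and 0.20, against -0.44, 0.37 and 3.02, and the SUR4 strain was the highest of the strains with a value. RTC3, a stress protein linked to RNA metabolism, was the highest of the series in the SUR4 strain at 2.37, against 0.21, 0.67, 1.16 and -0.69 in the ERG2, ISC1, ARV1 and CSF1 strains and -2.61, -0.02 and 2.29 in the other deletions.

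**Figure D3:**
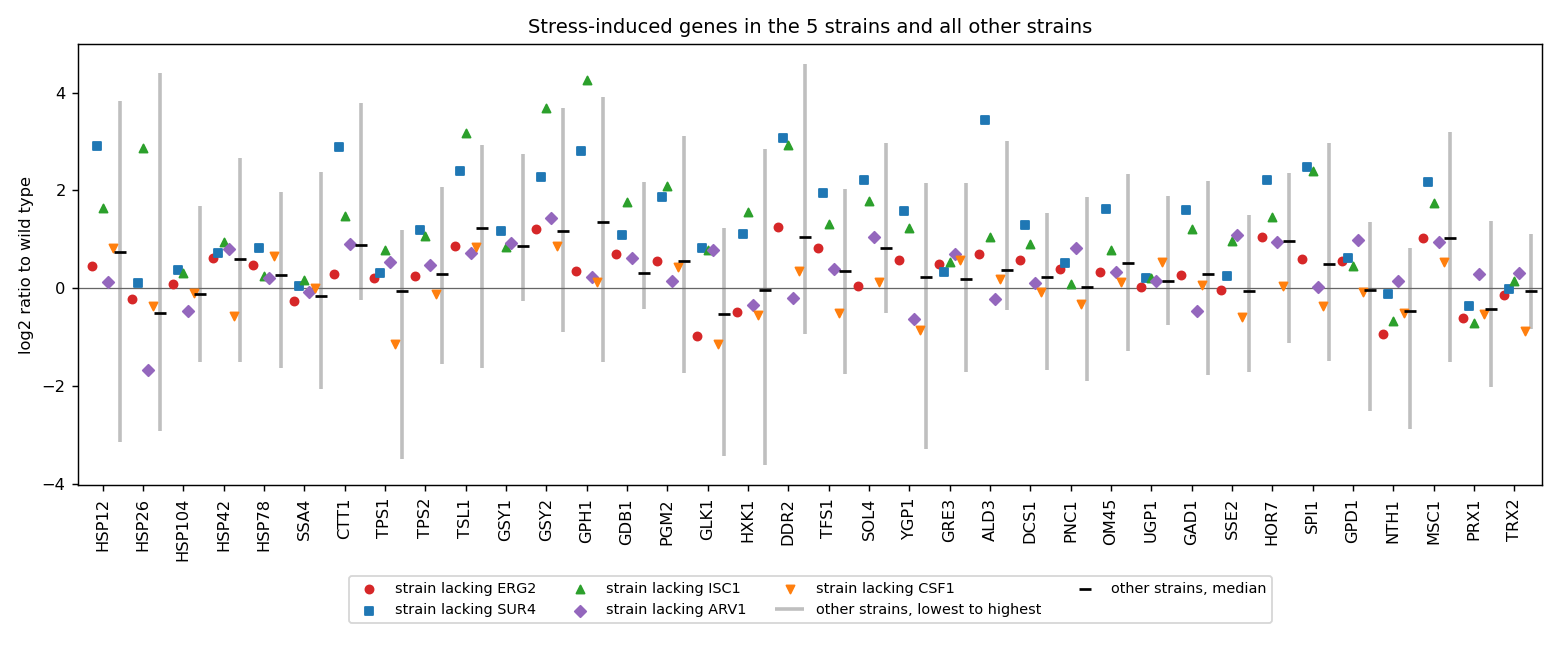
Log2 ratio to wild type (vertical axis) of 36 stress-induced genes, with 1 symbol per strain and, beside them, the range (grey line) and median (black dash) of the other deletions. The ISC1 strain (upward triangles) lies above the range of the other deletions in TSL1 and GPH1, and the SUR4 strain (squares) lies above it in ALD3.

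In the ISC1 strain GPH1 and TSL1 were the 2 stress genes above every other strain. GPH1, the glycogen phosphorylase, had 0.35 in the ERG2, 2.80 in the SUR4, 4.25 in the ISC1, 0.23 in the ARV1 and 0.12 in the CSF1 strain, against -1.51, 1.36 and 3.92 in the other deletions. TSL1, a subunit of trehalose synthase, had 0.87, 2.39, 3.17, 0.71 and 0.85, against -1.63, 1.23 and 2.93. The ISC1 strain was the highest of the series in both, and the ERG2, ARV1 and CSF1 strains lay below the median. CYC7, the cytochrome c isoform of low oxygen, had -0.44 in the ERG2, 3.09 in the SUR4, 3.29 in the ISC1 and 1.05 in the CSF1 strain, with no value in the ARV1 strain, against -0.72, 1.01 and 3.04, so that the ISC1 and SUR4 strains were first and second. Other genes highest of the series in the ISC1 strain were AIM17 at 4.11, ACS1 (acetyl-CoA synthetase) at 2.48, PSP2 at 2.23, VNX1 (a vacuolar cation exchanger) at 2.17 and CRM1 (the nuclear export receptor) at 0.72. HSP26, a small heat shock protein chosen after its values were seen, stood further from the mean of the others than any other stress gene in the ISC1 strain, 3.12 above it, where it had 2.86, against 0.10 in the SUR4 strain and a median of -0.50.

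The ISC1 strain, like the ARV1 strain, also had low transcripts of ribosome assembly. Over its 4316 genes with a value, 3.68% were at least 2-fold higher and 5.77% at least 2-fold lower. Both directions together came to 9.45% of its genes, and to 3.59% against the mean of its batch. Its median over 59 ribosome biogenesis genes was -0.47, the 4th lowest of the series, -0.31 after centring and -0.30 against its batch, where it was the 7th lowest. Of the list, 12 genes were above the mean of the others, against 36.5% of all genes in the ISC1 strain. The ARV1 strain had -0.37, -0.43 after centring and -0.29 against its batch, where it was the 9th lowest. The ERG2, SUR4 and CSF1 strains had 0.09, -0.23 and -0.13. RIO1, a kinase of small subunit maturation, had -0.81, -1.40, -3.11, -1.82 and -0.50 in the ERG2, SUR4, ISC1, ARV1 and CSF1 strains, against -2.80, -0.94 and 0.75 in the other deletions, and MPP10, a processome protein, had -0.47, -0.07, -2.39, -0.83 and -0.55, against -1.89, -0.54 and 0.95. The ISC1 strain was the lowest of the series in both. It was also the lowest in UTP25 (-2.45), CRP1 (-2.18), TSC11 (-1.86, a subunit of TORC2, the kinase complex that signals to sphingolipid synthesis), MTM1 (-1.83), TAF2 (-1.60) and BSD2 (-1.40).

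Among the 5 strains the sphingolipid list was lowest in the ISC1 and highest in the CSF1 strain, by less when library batch was taken into account. Its median over 31 genes was -0.29 in the ISC1 strain, the 4th lowest of the series, and 0.36 in the CSF1 strain, the 6th highest, against -0.06, -0.08 and -0.03 in the ERG2, SUR4 and ARV1 strains and -0.36, -0.01 and 0.48 in the other deletions. Against batch means the ISC1 median was -0.13, the 24th lowest, and the CSF1 median 0.22, the 12th highest, and after centring they were -0.13 and 0.33. In the ISC1 strain 10 of 31 genes were above the mean of the others, against 36.5% of all its genes. Of the list, 3 were at least 2-fold higher and 4 at least 2-fold lower, the deleted ISC1 among them, against 3.68% and 5.77% of all its genes. PHS1, the dehydratase of the very long chain fatty acid cycle, had 0.40 in the ERG2, -0.63 in the SUR4, -1.73 in the ISC1, -0.40 in the ARV1 and 1.14 in the CSF1 strain, against -2.07, -0.34 and 0.80. LCB3, a long chain base phosphatase, had -0.67, -0.94, -1.70, -0.80 and 0.48, against -2.54, -0.72 and 0.25. In both the CSF1 strain was the highest of the series, as it was in LIP1 (1.21, a subunit of ceramide synthase) and YPK1 (1.16, the kinase that signals to this pathway). LCB2, a subunit of serine palmitoyltransferase, had -1.30 in the ISC1 strain, and the ceramidases YPC1 and YDC1 had 1.27 and 1.48 there, against medians of -0.04, 0.04 and 0.33 in the other deletions.

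ORM2, an inhibitor of serine palmitoyltransferase, differed widely between the strains. It had 0.56 in the ERG2, -0.66 in the SUR4, -1.69 in the ISC1, 1.23 in the ARV1 and 0.07 in the CSF1 strain, against -2.04, -0.40 and 1.33. The ARV1 strain was the second and the ERG2 strain the 5th highest, and the ISC1 strain was among the lowest. CSG2, a subunit of the enzyme that adds mannose to inositol phosphoceramide, was the highest of the series in the SUR4 strain at 0.23, with 0.11 in the ISC1 and 0.10 in the ARV1 strain ranking 5th and 6th, against -0.63 in the ERG2 and -0.53 in the CSF1 strain and -2.26, -0.56 and 0.14 in the other deletions. Its class difference of 0.44 was not called (limma, adjusted p = 0.346).

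Beyond stress genes, the SUR4 strain differed little from the others. Of 4442 genes, 1.53% were at least 2-fold higher (68) and 1.44% at least 2-fold lower (64), together 2.97%, which was 1.31% against the mean of its batch. Its sphingolipid list had 1 gene at least 2-fold from the others, the deleted SUR4. RPC40, a subunit shared by RNA polymerases I and III, was the lowest of the series at -1.08, against 0.35, -0.25, 0.11 and 0.49 in the ERG2, ISC1, ARV1 and CSF1 strains and -0.88, 0.12 and 1.07 in the other deletions. RIB7 (-0.36, riboflavin synthesis) and ARL1 (-1.07, a Golgi GTPase) were lowest there too. Sulfur and methionine genes had a median of 0.46 and phosphate genes of 0.44, ranking 14th and 17th.

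Single desaturation and elongation genes were high in the SUR4 and ISC1 strains, which share a library batch, and low in the ARV1 strain. The median of the fatty acid list was 0.14 in the SUR4, -0.14 in the ISC1 and -0.14 in the ARV1 strain. In the ISC1 strain 4 of 13 genes were at least 2-fold higher, against 3.68% of all its genes, but 0 against the mean of its batch. In the ARV1 strain 3 were at least 2-fold lower, against 1.25% of all its genes, but 0 against its batch. OLE1, the only fatty acid desaturase of yeast, had -0.36 in the ERG2, 0.98 in the SUR4, 1.15 in the ISC1, -0.98 in the ARV1 and -0.15 in the CSF1 strain, against -1.16, 0.09 and 1.17 in the other deletions. ELO1, the elongase of medium chain fatty acids, had -0.93, 0.83, 1.31, -0.90 and 0.20, against -1.56, 0.13 and 1.37. Against the mean of their batch OLE1 was 0.37 higher in the SUR4 and 0.54 higher in the ISC1 strain, and against all other deletions 0.86 and 1.03. The ISC1 strain was the second highest of the series in both, the SUR4 strain was also high, and the ARV1 strain was among the lowest, with the ERG2 strain low in ELO1. FAA4, an acyl-CoA synthetase, was likewise low in the ARV1 strain at -1.39, the second lowest, and FAA3 had -2.72 in the ISC1 strain, against medians of -0.37 and -0.88. SPT23, a membrane-bound activator of OLE1, had 0.40, 0.28, 1.10, -0.52 and 0.34 in the ERG2, SUR4, ISC1, ARV1 and CSF1 strains, against -1.71, 0.06 and 1.26, so that it too was high in the ISC1 and low in the ARV1 strain. Its paralog MGA2 ran from -0.35 in the ISC1 to 0.58 in the CSF1 strain, against a median of 0.21.

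The strain lacking ARV1 had high transcripts of ER folding and cell wall genes. Of 4482 genes, 3.39% were at least 2-fold higher and 1.25% at least 2-fold lower. In the folding list 11 of 14 genes were at least 2-fold higher, and the list median of 1.63 was the highest of the series, with the CHO2 strain next at 0.85 and the other deletions between -0.48 and 0.85. In the wall list 9 of 13 were at least 2-fold higher, and the median of 1.79 was second to that of the THP1 strain at 2.02, with the other deletions between -0.74 and 2.02. The ERG2, SUR4, ISC1 and CSF1 strains had folding medians of 0.15, -0.14, -0.33 and 0.46 and wall medians between 0.11 and 0.22. Against its batch the CSF1 strain had a wall median of 0.56, the 10th highest. Against its batch the ARV1 strain had 1.57 and 1.81.

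**Figure D4:**
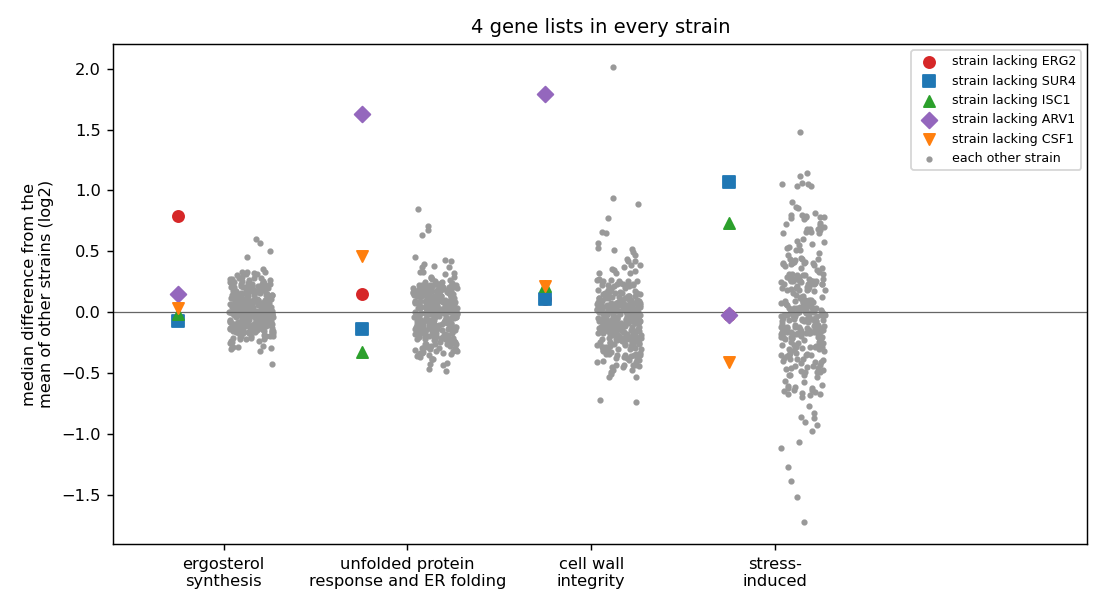
Median difference from the mean of the other deletions (vertical axis, log2 units) of 4 gene lists, with the 5 strains as coloured symbols and every other strain as a grey point. The ERG2 strain is above all points for ergosterol synthesis (0.79) and the ARV1 strain for ER folding (1.63), while 1 other strain is above the ARV1 strain for cell wall integrity.

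KAR2, given above, is the classical target of Hac1 and carries the unfolded protein response element, searched here as CAGCGTG on both strands of the same 500 bases. Its window on the plus strand at chrX:381147-381193 reads as follows, with the element in capitals.
KAR2: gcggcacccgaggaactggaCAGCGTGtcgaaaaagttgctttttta
These letters occurred in 2 of the 14 folding genes (14.3%), KAR2 and LHS1, against 2.32% of 6000 genes. Here too the share describes the list and not the strains. ERO1, SIL1 and MCD4 held no match.

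ERO1, the oxidase that forms disulfide bonds in the ER, had log2 ratios of 0.09 in the ERG2, -0.19 in the SUR4, -0.82 in the ISC1, 2.45 in the ARV1 and 2.01 in the CSF1 strain, against -2.03, -0.18 and 1.67 in the other deletions. The ARV1 and CSF1 strains were the first and second of the series, above all others, and the other 3 lay at or below 0.09. Its class difference was 0.92 ± 0.18 with the batch (SE, limma, adjusted p = 0.00097) and 0.87 ± 0.22 without (adjusted p = 0.0797). SIL1, the exchange factor of Kar2, had -0.28, -0.72, -1.06, 2.32 and 0.63, against -1.88, -0.38 and 1.43, and MPD1, a disulfide isomerase, had 0.14, 0.40, -0.36, 2.22 and -0.04, against -1.16, 0.20 and 1.79. In both the ARV1 strain lay above every other strain. PDI1, the main disulfide isomerase, had -0.02, -0.42, -0.20, 1.47 and -0.02, against -0.86, -0.25 and 0.81, again with the ARV1 strain above all others and the CSF1 strain near the ERG2 strain. HAC1, chosen after its values were seen, had -1.33, 0.22, 0.67, -0.46 and -2.79, against -3.67, -1.27 and 1.69, and neither the ARV1 nor the CSF1 strain was near the top. Its splicing, by which Hac1 is known to be activated, cannot be read from a value per gene.

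**Figure D5:**
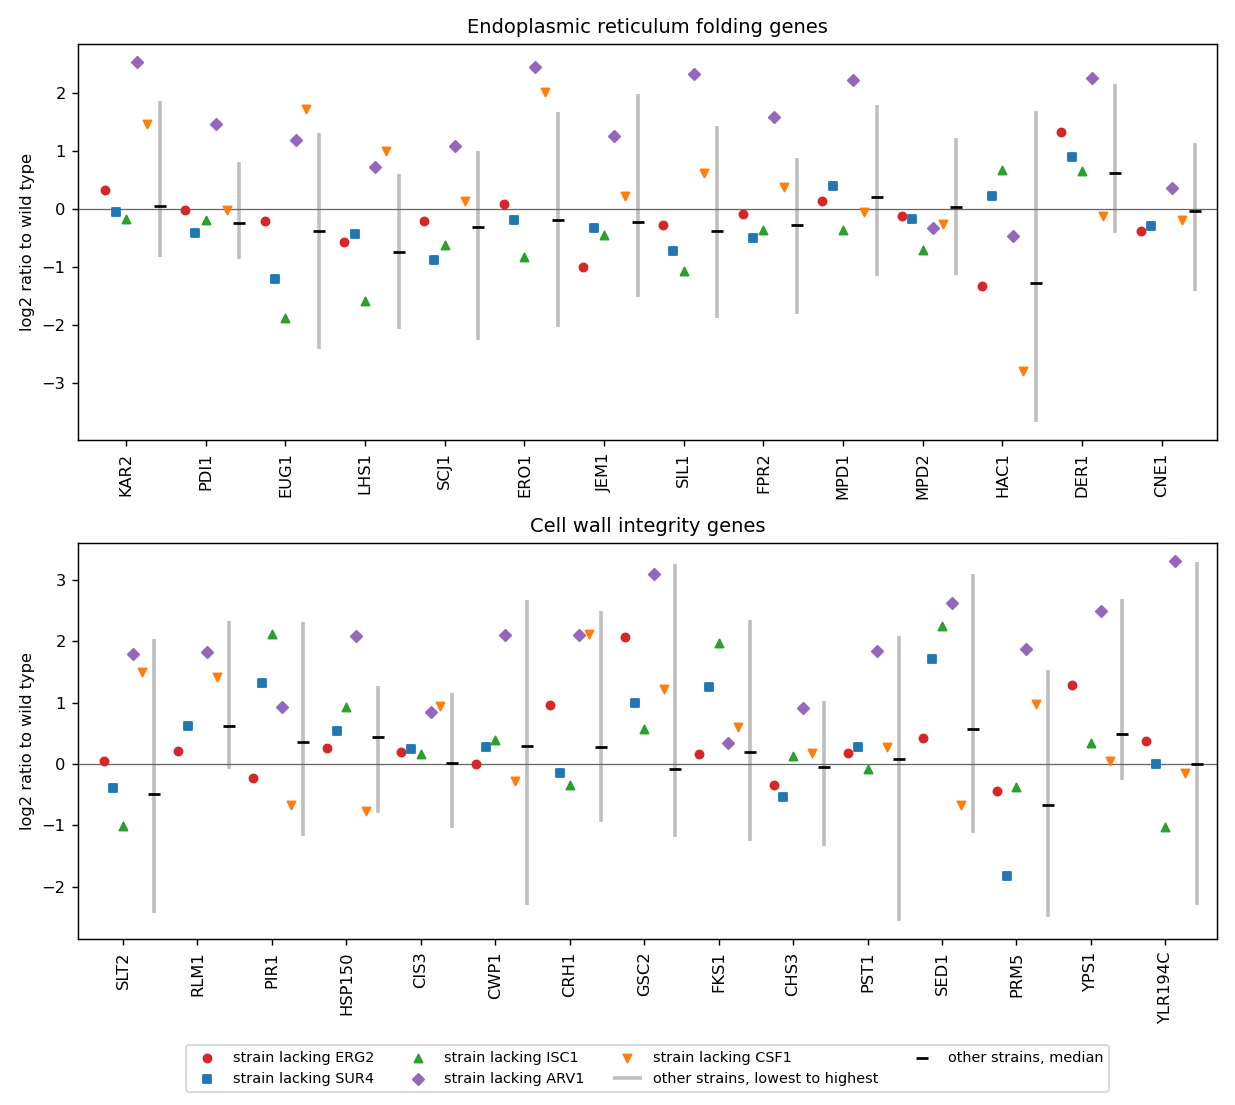
Log2 ratio to wild type (vertical axis) of 14 ER folding genes (top) and 15 cell wall genes (bottom), with 1 symbol per strain and, beside them, the range (grey line) and median (black dash) of the other deletions. The ARV1 strain (diamonds) lies above the range in KAR2, PDI1, ERO1, SIL1 and MPD1, among others, and the CSF1 strain (downward triangles) in EUG1, LHS1 and ERO1.

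YLR194C, a GPI-anchored wall protein, had 0.37 in the ERG2, 0.01 in the SUR4, -1.03 in the ISC1, 3.31 in the ARV1 and -0.15 in the CSF1 strain, against -2.30, 0.01 and 3.29. PRM5, a membrane protein induced through Slt2, had -0.45, -1.82, -0.37, 1.87 and 0.98, against -2.50, -0.67 and 1.52, and GFA1, the first enzyme of chitin precursor synthesis, had -0.07, -0.78, 0.91, 1.86 and -0.37, against -2.33, -0.51 and 1.31. The ARV1 strain was the highest of the series in these 3 genes. CRH1, a transglycosylase that joins chitin to glucan, had 0.97, -0.15, -0.34, 2.10 and 2.12, against -0.95, 0.27 and 2.50, with the ARV1 and CSF1 strains 3rd and second. ADD37, linked to ER-associated degradation, was also highest in the ARV1 strain at 1.60, against a next highest value of 0.57 in the RTF1 strain. CMC1 (-1.59, cytochrome oxidase assembly) and NOP14 (-1.26, small subunit assembly) were the lowest of the series there. Ribosome biogenesis had a median of -0.37 in this strain with 55 of 59 genes below the mean of the others, while 54.5% of all its genes were above it, and sulfur and methionine genes had 0.64, the 10th highest.

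The CSF1 strain differed in more genes than the other 4, in a library that also scattered more. Of 4285 genes, 9.4% were at least 2-fold higher and 6.67% at least 2-fold lower, a total of 689 genes that was the 8th highest of 328 strains. It had the highest value of all strains in 98 genes and the lowest in 70. The scatter and the share of empty cells given above move with these counts, and their part in the counts was not tested. The folding list had a median of 0.46, the 6th highest, with 5 of 14 genes at least 2-fold higher and 1 at least 2-fold lower, but 0.17 and rank 41 against its batch.

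ER and GPI anchor genes were among those at the top of the series in the CSF1 strain. MCD4, the ethanolamine phosphate transferase of GPI synthesis, had -0.06 in the ERG2, -0.04 in the SUR4, -0.41 in the ISC1, 1.72 in the ARV1 and 2.10 in the CSF1 strain, against -1.72, -0.10 and 1.22. The CSF1 and ARV1 strains were the first and second of the series, and the other 3 lay near or below the median. Its class difference was 0.79 ± 0.18 with the batch (SE, limma, adjusted p = 0.0106) and 0.78 ± 0.19 without (adjusted p = 0.0797). SEC59, the dolichol kinase whose product feeds GPI synthesis and glycosylation, had 0.15, -0.07, 0.65 and 1.92 in the ERG2, SUR4, ARV1 and CSF1 strains, with no value in the ISC1 strain, against -1.37, -0.26 and 1.26. ERJ5, an ER cochaperone, had 2.09 and EUG1, a disulfide isomerase of the ER, 1.73 in the CSF1 strain, against highest values of 2.03 and 1.31 in the other deletions. GPI17 at 1.27, GPI16 at 1.44 and BST1 at 1.54, chosen after their values were seen, were also highest there. Yet the GPI list as a whole had a median of -0.02 in the CSF1 strain. Of its 20 genes with a value, 5 were at least 2-fold higher and 2 at least 2-fold lower, against 9.4% and 6.67% of all genes in this strain. In the ARV1 strain the GPI list had 0.32, the 8th highest, with 18 of 21 genes above the mean of the others, against 54.5% of all its genes.

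Other genes at the top of the series in the CSF1 strain were ENT3 at 3.28, an adaptor of traffic between Golgi and endosomes, BUD16 at 2.01, and the neighbours YPL038W-A at 2.64 and YPL039W at 2.59. These neighbours had nearly equal values in all 5 strains, and shared reads and a shared change cannot be told apart here. At the bottom were YER156C at -2.99, MAK16 at -2.97 and NOG1 at -2.29 (large subunit assembly), UGA1 at -2.64 (GABA transaminase), SAT4 at -2.25, YKL100C at -1.93, PSK1 at -1.67 and YIL020C-A at -1.56. SAT4 was close to its value of -2.24 in the strain that lacks it.

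Phospholipid and phosphate genes also stood apart in the CSF1 strain. The inositol and phospholipid list had a median of 0.40, the 6th highest, against 0.05, -0.07, -0.06 and 0.08 in the ERG2, SUR4, ISC1 and ARV1 strains. The other deletions had -0.50 to 0.52, with the CHO2 strain at the top. Against its batch the CSF1 strain had 0.22, the 18th highest, with 3 genes at least 2-fold higher and 3 lower. Over all genes, 665 of the 4285 in the CSF1 strain were at least 2-fold from that batch mean. ITR2, an inositol transporter, had 0.60 there, the highest of the series, and PSD1 (1.19, phosphatidylserine decarboxylase) and EPT1 (1.65, ethanolamine phosphotransferase) the second highest. OPI3, a methyltransferase of phosphatidylcholine synthesis, had 2.11 in the ERG2, 2.77 in the SUR4, 2.90 in the ISC1, 3.10 in the ARV1 and 3.55 in the CSF1 strain, against 0.78, 2.40 and 4.37. Phosphate genes had a median of -0.54, the 4th lowest, eisosome genes -0.36 and stress genes -0.41, with 26 of 32 stress genes below the mean of the others, while 48.7% of all its genes were above it.

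The strains lacking CHO2, PSD1, LEM3, UPS1 or DRS2, which act in phospholipid synthesis and transport, served as a second class for comparison. In limma no gene differed between the sterol and sphingolipid deletions and these 5 strains (0% of 4489 genes tested, with 92 at an unadjusted p under 0.05 and 0 called with the batch). KAR2 averaged 0.82 ± 1.16 in the sterol and sphingolipid deletions and 0.75 ± 0.85 in the phospholipid deletions (SD, n = 5 each), a difference of 0.07 ± 0.22 (SE). GSC2 differed by -0.17 ± 0.54 and ERO1 by 0.26 ± 0.31 (SE). The absence of calls does not show that the classes are alike, since each holds 5 unlike genotypes. The folding list ran between -0.33 and 1.63 in the 5 strains and between -0.29 and 0.85 in the phospholipid deletions, and the ergosterol list between -0.07 and 0.79 and between -0.17 and 0.23. The stress-induced list ran between -0.41 and 1.07 in the 5 strains and between -0.04 and 1.04 in the phospholipid deletions. The CHO2 and DRS2 strains, at 1.04 and 0.73, were as high in it as the SUR4 and ISC1 strains, at 1.07 and 0.73.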

How the data were processed

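PolyA RNA of each of 328 deletion strains was sequenced, 1 library per strain. The authors deposited log2 ratios of each strain to the wild type strain, per the series' design, in tables of 255 and 73 strains. The base is not written and was taken as 2, since a whole-chromosome shift reached 0.916, more than a doubling would give in natural or decimal logarithms. Bowtie was used, per the submitters' processing notes. How reads were counted and normalized, against which build and with which version is not given in the sources used here. Depth is unknown, so no interval that needs it was computed. The second table has no gene column and was matched to the first by row position (6698 and 6701 rows, the 3 further rows empty): gene means correlated at 0.979 with no offset and at no more than 0.0463 with offsets of up to 5 rows. Empty cells were kept as missing, and no pseudocount was added to the deposited log2 ratios.

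The 5 strains were compared with the other 323 in limma 3.58.1 (R 4.3.3; lmFit and eBayes, two-sided, Benjamini-Hochberg, threshold 0.05), over genes measured in 80% or more of all strains and in at least 3 of the 5. A fit of 3 groups gave the contrast with phospholipid deletions. Strains are single cultures. Each SE and p-value rests on a spread per gene pooled over all strains, and so mostly on that of the other 323. The spread within the class hardly enters, so high values in few of the 5 strains can give a class call. Both comparisons share the control strains. Single strains have no test: their values were set against the mean of the other deletions, ranked among strains, and counted at a 2-fold difference. List medians per strain were taken the same way. Library batches came from a Gaussian mixture of 4 components on 4 principal components of 2142 complete genes (10 starts, scikit-learn 1.9.0). Named class genes were the 12 largest calls each way, and the 10 with the smallest p, without deleted genes and genes within 5 open reading frames of one. Named genes of a single strain were the 8 largest differences each way among genes where it was the highest or lowest of all strains. Every member of the lipid lists could be named. The members and lists were chosen with earlier results of these data known. The fit was also run on simulated shifts, added equally to 5 randomly drawn other strains. That setting differs from class calls that rest on few of the 5 strains, so it does not check such calls. Promoters were read from the R64 reference of RefSeq, matched by locus tag (4812 of 4922 genes with any value); the submitters' build is not known to be the same, and no coordinate was taken from their files. Python 3.11.15, numpy 2.4.6, pandas 2.3.3 and matplotlib 3.10.9 were used. Other settings tried were the batch as a term or as the reference, centring each strain on its median, complete genes only, a variance trend, another reference, no strains with a shifted chromosome, other folds, and leaving out each strain.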

Additional observations from a re-analysis of the deposited data

Results flagged for a closer look

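Among 43 named values and list medians looked at over the 5 strains, 4 had a strain far from the other 4. By chance such a gap comes in about 1 of 20 groups of 5 values drawn alike. That rate is no measure here: UTP25 and PAM18 were named through calls in these same data, the lists were chosen with earlier results known, and the 5 strains are unlike genotypes. UTP25 was at -2.45 in the ISC1 strain and between -1.16 and -0.70 in the other 4, a gap of 0.739 of the whole range. PAM18 was at -2.06 in the CSF1 strain and between -0.83 and -0.55 in the other 4, a gap of 0.817 of the range. The median of the ergosterol synthesis list was 0.79 in the ERG2 strain and between -0.07 and 0.15 in the other 4, a gap of 0.738 of the range. The median of the cell wall integrity list was 1.79 in the ARV1 strain and between 0.11 and 0.22 in the other 4, a gap of 0.934 of the range.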

How the results depend on the processing

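The count of genes called in the class was 2. It was 32 with the library batch as a term, 16 with each strain centred on its median, 29 with both, and 6 over complete genes only. It was 2 with a variance trend, 2 without ribosomal protein deletions in the reference, and 3 without the 17 strains with a shifted chromosome. Leaving out each strain in turn gave 0 to 19 calls: 0 without the CSF1 strain, 1 without ARV1, 9 without ERG2, 11 without SUR4 and 19 without ISC1. The cause was not tested. KAR2 was called under each of these settings except without the ARV1 or CSF1 strain. The contrast with phospholipid deletions had 0 calls in limma under all 12 alternatives. The median of the anaerobic list, 0.42, was -0.17 over complete genes and ran between -0.0096 (without the ERG2 strain) and 0.354 when 1 strain was left out. In the other settings it moved by less than the spread between strains, as did the medians of the other 19 lists in all settings. The share of genes at least 2-fold from the other deletions was 1.90%, 2.97%, 9.45%, 4.64% and 16.1% in the ERG2, SUR4, ISC1, ARV1 and CSF1 strains. It was 12.01%, 15.8%, 30.0%, 18.01% and 41.8% at 1.5-fold and 0.203%, 0.293%, 1.58%, 1.12% and 2.87% at 3-fold. Against the batch mean it was 1.31% in the SUR4 and 3.59% in the ISC1 strain. The list medians of single strains against the batch mean and after centring were added after seeing the data. Over the 20 lists and 5 strains 17 of these values moved by more than the spread between strains and 31 had the other sign; sterol regulation was at -0.05 in the ARV1 strain but 0.26 against its batch, and at 0.25 in the SUR4 strain but -0.0052, and glycolysis was at -0.03 in the CSF1 strain but 0.23. No paired analysis was possible because the replicate numbers are in accession order and pair no strains. Leaving out strains whose deleted gene was not lowered was not run: there were 0 among the 3 strains with a value, and ARV1 and CSF1 had no value in their own strains. With 1 library per strain and unknown depth, small differences in single strains cannot be told from library noise.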
